A study of Homo sapiens with 32 samples.

Results

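The genes that hold or release the brake on G1, the phase of the cell cycle before DNA replication, were followed across 4 treatments of the MM.1S line, human plasma cells grown from a multiple myeloma. The set was named by symbol and holds 10 genes: the CDK inhibitors CDKN1A (p21), CDKN1B (p27), CDKN2C (p18) and CDKN2D (p19), the D-type cyclins CCND2 and CCND3, the kinases CDK4, CDK6 and CDK2, and cyclin E1 (CCNE1). Of these, 9 were found among the 24249 gene IDs, all 9 passed the filter on low values that left 15827 genes to test, and CDKN2C was not analysed here. RNA was taken after 4 regimens: a pulse of 1 h with the proteasome inhibitor carfilzomib and then 12 h with 10 µM all-trans retinoic acid (ATRA+Cfz, 1 library), a DMSO pulse and then 12 h with 10 µM ATRA (ATRA, 3 libraries), a carfilzomib pulse and then 12 h with DMSO (Cfz, 1 library), and DMSO in both steps (DMSO, 3 libraries). All cells were MM.1S, so every value is of 1 cell line, and all received fresh medium after the pulse. The dose of carfilzomib is not given in what was used here. No label says that libraries are from separate cultures. The p-values therefore measure the spread between these libraries alone, and that spread may be technical.

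Cells leave G1 when D-type cyclins bound to CDK4 or CDK6, and later cyclin E bound to CDK2, phosphorylate the retinoblastoma protein and so release E2F factors, which switch on the genes of DNA replication and CCNE1 itself. The INK4 inhibitors, CDKN2C and CDKN2D, bind CDK4 and CDK6, and the CIP/KIP inhibitors, CDKN1A and CDKN1B, bind the cyclin-CDK complexes and block CDK2. Much of this control acts on protein, as CDKN1B is broken down through SKP2 and the proteasome that carfilzomib inhibits, and protein was not measured. In multiple myeloma a D-type cyclin is raised in nearly every tumour, and CCND2 is the one that the transcription factor MAF drives.

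Depth was 14136937 to 17155331 reads per library, and 3 reads correspond to 0.175 to 0.212 FPM (fragments of a gene per 1000000 fragments counted in its library). All 7 listed plasma cell markers were present, with a summed level of 7057 FPM in ATRA+Cfz, 7922 to 7966 FPM in ATRA, 3813 FPM in Cfz and 3868 to 4218 FPM in DMSO. They did not all move with that sum. Under ATRA 6 were called higher and 1, IRF4, was called lower (log2 fold change -0.44, limma adjusted p 0.000149). The log2 fold change of IRF4 in ATRA+Cfz against DMSO was -0.25. The part of these shifts in the results was not tested. No single marker on the lists for T and NK, myeloid, stromal or epithelial cells passed 3.34 FPM in any library. The 4 epithelial markers found summed to 2.54 FPM in ATRA+Cfz, 0.752 to 1.15 FPM in ATRA, 3.67 FPM in Cfz and 0.874 to 1.61 FPM in DMSO. The 4 stromal markers summed to 2.26, 1.39 to 1.47, 2.55 and 0.602 to 1.45 FPM in the same order, the 4 myeloid markers to 2.19, 1.32 to 2.14, 1.57 and 0.758 to 1.03 FPM, and the 3 T and NK markers to 2.33, 1.89 to 2.99, 2.82 and 3.57 to 3.61 FPM. Of these, named after their values were seen, EPCAM and PDGFRB were called higher in ATRA+Cfz and Cfz against DMSO, and S100A9 higher and CD3E lower in ATRA+Cfz and ATRA, and their part in the results was not tested. The control DMSO 3 stood apart from DMSO 1 and DMSO 2, and chi-square over its degrees of freedom was 9.37 and 9.90 in those pairs and 1.74 between DMSO 1 and DMSO 2. Of the reads of DMSO 3, 5.85% were of mitochondrially encoded genes, against 4.12% and 4.09% in DMSO 1 and DMSO 2. The share was 5.72% in ATRA+Cfz, 3.67% to 3.89% in ATRA and 5.43% in Cfz.

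Against DMSO, ATRA raised the RNA of 1 of the 9 genes, CDKN1A, and lowered that of 5: CCND2, CCND3, CDK4, CCNE1 and CDK2. CDKN1B, CDKN2D and CDK6 did not pass the test (limma, Benjamini-Hochberg adjusted p under 0.05 over all genes tested). Over all genes, 21.3% were called higher and 27.4% lower under ATRA, so 48.7% of the transcriptome was called, and the count of members is read against that. The median log2 fold change was -0.17 over the 9 genes and -0.03 over all genes tested. For 6 of the 9 genes the ATRA and DMSO libraries did not overlap, 1 with ATRA above and 5 with ATRA below, as was so for 56.6% of all genes tested (25.5% above and 31.1% below). In these bulk samples, fewer cells of a type, here of cells in one phase of the cycle, and less RNA per cell cannot be told apart.

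**Figure D1:**
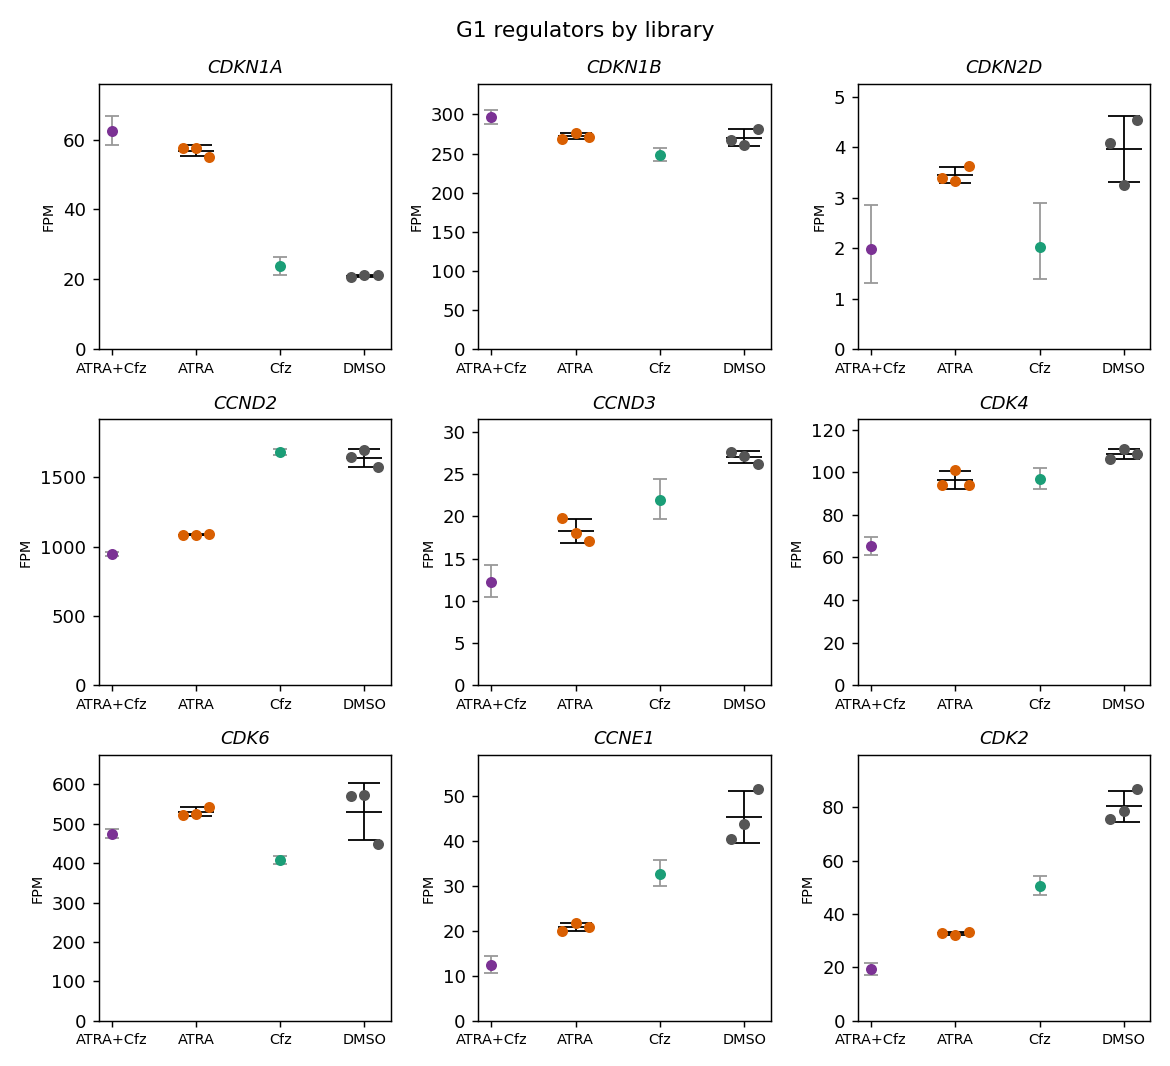
FPM of the 9 genes in each library (1 point per library; vertical axes start at 0), grouped as ATRA+Cfz, ATRA, Cfz and DMSO. Black bars are the mean ± SD of 3 libraries, and grey bars on single libraries are 95% exact Poisson intervals, which cover counting error only. CDKN1A is high in the 4 libraries with ATRA, CCNE1 and CDK2 step down through Cfz and ATRA to ATRA+Cfz, and CDK6 in DMSO 3 lies well below the other controls.

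CDKN1A, which encodes the CIP/KIP inhibitor p21, stood at 62.6 FPM in the ATRA+Cfz library (95% exact Poisson interval 58.5 to 66.8), at 57.7, 57.6 and 55.0 FPM in the ATRA libraries, at 23.7 FPM in the Cfz library (21.4 to 26.3) and at 20.8, 21.1 and 21.3 FPM in the DMSO libraries. Every library with ATRA held more than 50 FPM and every library without it less than 30 FPM, so the groups were far from overlapping. The means were 56.8 ± 1.52 FPM under ATRA and 21.1 ± 0.291 FPM under DMSO (SD, n = 3 each), a 2.69-fold difference and a log2 fold change of 1.41 ± 0.05 (SE; limma, Benjamini-Hochberg adjusted p 1.81e-09). After a Cfz pulse the rise under ATRA was about as large, at 1.38 ± 0.09 (ATRA+Cfz against Cfz, adjusted p 6.08e-07), and the difference between both effects was -0.03 ± 0.10 (adjusted p 0.913). The Cfz library lay 0.17 ± 0.07 above DMSO on the log2 scale, which did not pass the test (adjusted p 0.104), and with median-ratio scaling it was 0.23 and passed (adjusted p 0.0408; 0.0408 to 0.267 over all alternatives).

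The RefSeq promoter of CDKN1A, the 1 gene of the set that rose under ATRA alone, is shown with matches in capitals. In each promoter of the set, the 250 bases before the RefSeq gene start (GRCh38.p14) were searched on both strands, overlapping matches included, for an E2F site (TTTNNCGC), an E box bound by MYC and its partners (CACGTG), the hexamer of retinoic acid receptors (AGGTCA) and a GC box bound by SP1 (GGGCGG, which reads CCGCCC on the other strand). Among 35116 RefSeq promoters of this length, these were found in 5.92%, 6.34%, 12.1% and 42.6%. Only these exact letters in these 250 bases were searched, so a promoter without a match may still hold a site of another form or elsewhere. The CDKN1A window, on the plus strand at chr6:36678464-36678713, held 4 GC boxes and no match to the other motifs, and at least 4 GC boxes were found in 7.63% of promoters.
CDKN1A: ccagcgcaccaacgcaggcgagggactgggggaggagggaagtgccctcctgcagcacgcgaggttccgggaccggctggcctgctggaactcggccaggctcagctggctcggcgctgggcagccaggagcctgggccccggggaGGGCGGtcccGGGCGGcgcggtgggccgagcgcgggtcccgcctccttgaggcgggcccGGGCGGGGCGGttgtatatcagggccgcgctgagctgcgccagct

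CDKN1B, which encodes p27, was the more abundant CIP/KIP inhibitor and moved little. It stood at 296 FPM in ATRA+Cfz (287 to 305), at 269, 276 and 271 FPM in ATRA, at 249 FPM in Cfz (241 to 257) and at 268, 260 and 282 FPM in DMSO. The ATRA and DMSO libraries overlapped, and the 2 single libraries lay on either side of them. ATRA differed from DMSO by 0.01 ± 0.04 on the log2 scale (adjusted p 0.815), and Cfz by -0.12 ± 0.05 (adjusted p 0.128). ATRA+Cfz lay 0.25 ± 0.06 above Cfz (limma adjusted p 0.0112). Against DMSO it was 0.13 ± 0.05 higher with an adjusted p of 0.0502, just outside the threshold, and 8 of 16 alternatives put it inside, among them TMM scaling at 0.21 (adjusted p 0.00805) and leaving out DMSO 3 at 0.17 (adjusted p 0.000551, with up to 0.121 over all alternatives).

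CDKN2D, the INK4 inhibitor p19, was the least abundant of the genes, with 28 to 70 reads per library. It stood at 1.98 FPM in ATRA+Cfz (1.32 to 2.86), at 3.40, 3.34 and 3.63 FPM in ATRA, at 2.03 FPM in Cfz (1.38 to 2.89) and at 4.08, 3.26 and 4.55 FPM in DMSO. Both libraries that had the Cfz pulse were the lowest, while ATRA and DMSO overlapped. The fall against DMSO was 0.83 in ATRA+Cfz and 0.81 in Cfz on the log2 scale (SE 0.21 for each; limma adjusted p 0.00641 and 0.0172), and ATRA alone differed by -0.16 ± 0.15 (adjusted p 0.404). DESeq2 on the recovered reads made neither call (adjusted p 0.0893 and 0.156, the highest over all alternatives, where the lowest were 0.00363 and 0.0122). ATRA+Cfz also fell by 0.67 against ATRA (SE 0.21, limma adjusted p 0.0333), a call that was lost in 7 of 16 alternatives, among them leaving out any 1 ATRA library, edgeR and DESeq2 (adjusted p 0.0585 to 0.221 in these 7). The CDKN2D promoter held 1 match to the E2F site and was the 1 promoter with such a match among those searched, which did not include CCND2 and CDK2.

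CCND2, which encodes cyclin D2, was the most abundant gene of the set. It stood at 947 FPM in ATRA+Cfz, at 1087, 1085 and 1090.5 FPM in ATRA, at 1686 FPM in Cfz and at 1649, 1700 and 1575 FPM in DMSO. The 4 libraries with ATRA lay below all 4 without it, and the Cfz library lay within the range of the controls. The means were 1087 ± 2.97 FPM under ATRA and 1641 ± 62.8 FPM under DMSO (SD, n = 3 each), a log2 fold change of -0.59 ± 0.04 (limma adjusted p 1.53e-07). Relative to Cfz, ATRA+Cfz fell by 0.83 (SE 0.06, adjusted p 3.18e-06), and relative to ATRA it fell by 0.20 (SE 0.05, adjusted p 0.0141). Leaving out ATRA 2 or ATRA 3 brought that last p to 0.0508 or 0.0513. The levels ran from ATRA+Cfz through ATRA to DMSO and Cfz. The difference between the last 2 in this order did not pass the test (0.04 ± 0.05, limma adjusted p 0.638).

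CCND3 encodes cyclin D3, a D-type cyclin that normal B cells need to expand. It stood at 12.2 FPM in ATRA+Cfz (10.48 to 14.2), at 19.9, 18.01 and 17.1 FPM in ATRA, at 21.99 FPM in Cfz (19.7 to 24.5) and at 27.7, 27.2 and 26.2 FPM in DMSO. No library with a drug reached the lowest control. ATRA lowered it by 0.55 on the log2 scale (SE 0.07, limma adjusted p 5.55e-05), ATRA+Cfz fell by 1.11 against DMSO (SE 0.10, adjusted p 3.01e-06), and Cfz differed from DMSO by -0.29 ± 0.10, which did not pass (adjusted p 0.0559). Without DMSO 3 the Cfz difference passed (-0.31, adjusted p 0.0264; 0.0264 to 0.367 over all alternatives).

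CDK4, a catalytic partner of the D-type cyclins, showed its clear fall where both drugs had been given. It stood at 65.2 FPM in ATRA+Cfz (61.1 to 69.6), at 94.0, 101 and 94.2 FPM in ATRA, at 96.9 FPM in Cfz (92.0 to 102) and at 106, 111 and 109 FPM in DMSO. The ATRA+Cfz library lay far below the rest, and the ATRA and DMSO libraries did not overlap. ATRA against DMSO gave -0.17 ± 0.04 (limma adjusted p 0.00538, and 0.098 with DESeq2, the highest over all alternatives), ATRA+Cfz against DMSO gave -0.73 ± 0.06 (adjusted p 1.22e-06) and Cfz against DMSO gave -0.16 ± 0.06 (adjusted p 0.0657). Without DMSO 3 the Cfz difference passed (adjusted p 0.0271, with up to 0.5 over all alternatives). The CDK4 promoter, on the minus strand at chr12:57752311-57752560, is shown because it held E boxes, which no other searched promoter of the genes analysed did. It held 3 of them and 3 GC boxes, all in capitals, and 28 of the 35116 promoters (0.0797%) held at least 3 E boxes.
CDK4: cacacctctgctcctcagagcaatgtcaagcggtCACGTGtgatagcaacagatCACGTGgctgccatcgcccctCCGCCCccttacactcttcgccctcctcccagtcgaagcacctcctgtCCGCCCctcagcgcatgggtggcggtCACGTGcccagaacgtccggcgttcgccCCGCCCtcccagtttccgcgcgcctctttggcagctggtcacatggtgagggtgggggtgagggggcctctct

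CDK6, the other catalytic partner of the D-type cyclins, rested on 1 control. It stood at 474 FPM in ATRA+Cfz (463 to 486), at 523, 524 and 543 FPM in ATRA, at 409 FPM in Cfz (399 to 419) and at 570, 573 and 447 FPM in DMSO. The ATRA libraries fell between DMSO 3 and the 2 other controls, so the groups overlapped. With all controls, ATRA differed from DMSO by 0.01 ± 0.08 (limma adjusted p 0.94), Cfz by -0.37 ± 0.11 (adjusted p 0.0306) and ATRA+Cfz by -0.15 ± 0.11 (adjusted p 0.277). Without DMSO 3 they were -0.11, -0.48 and -0.27 (adjusted p 0.000602, 6.15e-09 and 1.03e-06), so all 3 passed as lower. The Cfz call was lost in 8 of 16 alternatives, with adjusted p up to 0.158, among them leaving out DMSO 1, DMSO 2 or any 1 ATRA library. The mitochondrial share of reads, high in DMSO 3, Cfz and ATRA+Cfz as given above, moved with these values, and its part in them was not tested.

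CCNE1, the cyclin that activates CDK2 at the end of G1, stepped down with each drug. It stood at 12.5 FPM in ATRA+Cfz (10.7 to 14.5), at 19.9, 21.8 and 20.95 FPM in ATRA, at 32.7 FPM in Cfz (29.9 to 35.7) and at 40.6, 43.8 and 51.7 FPM in DMSO. No groups overlapped, and DMSO 3 was the highest control. The means were 20.9 ± 0.969 FPM under ATRA and 45.3 ± 5.72 FPM under DMSO (SD, n = 3 each), a log2 fold change of -1.09 ± 0.08 (limma adjusted p 7.49e-07). ATRA+Cfz fell by 1.81 against DMSO (SE 0.12, adjusted p 2.04e-07) and by 0.72 against ATRA (SE 0.12, adjusted p 0.000903). Cfz alone fell by 0.46 (SE 0.12, adjusted p 0.0154), and DESeq2 did not make this call (adjusted p 0.0619; 0.00474 to 0.0619 over all alternatives). The CCNE1 promoter is shown as that of the cyclin with the steepest fall in the set. Its window, on the plus strand at chr19:29811741-29811990, held 7 GC boxes, in capitals, and at least 7 GC boxes were found in 1.12% of promoters. It held no match to the exact letters of the other motifs, which does not show that such sites are absent.
CCNE1: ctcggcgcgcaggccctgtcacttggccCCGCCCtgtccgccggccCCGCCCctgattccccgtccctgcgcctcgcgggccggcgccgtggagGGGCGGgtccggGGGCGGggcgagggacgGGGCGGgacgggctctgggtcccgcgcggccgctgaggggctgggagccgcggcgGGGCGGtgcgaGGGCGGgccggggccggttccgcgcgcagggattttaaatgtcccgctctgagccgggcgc

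CDK2, the kinase that cyclin E and cyclin A activate, fell the most of the 9 genes in ATRA and in ATRA+Cfz against DMSO. In Cfz it fell the most after CDKN2D. It stood at 19.4 FPM in ATRA+Cfz (17.2 to 21.8), at 33.1, 32.1 and 33.2 FPM in ATRA, at 50.6 FPM in Cfz (47.1 to 54.3) and at 75.6, 78.6 and 87.0 FPM in DMSO. The 4 groups lay in the same order as for CCNE1, without overlap. ATRA averaged 32.8 ± 0.597 FPM and DMSO 80.4 ± 5.89 FPM (SD, n = 3 each), a log2 fold change of -1.28 ± 0.06 (limma adjusted p 1.01e-08). Cfz fell by 0.66 (SE 0.08, adjusted p 0.00019) and ATRA+Cfz fell by 2.02 (SE 0.08, adjusted p 5.1e-09), so that the ATRA+Cfz library held 0.241 times the DMSO mean.

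Across the set, Cfz alone raised none of the 9 genes and lowered 4, CDKN2D, CDK6, CCNE1 and CDK2, where 24.9% of all genes were called, 7.94% as higher and 17% as lower. Of all genes called for Cfz 31.8% were higher, and 46.3% with median-ratio scaling. DESeq2 kept 1 of these 4 calls, that of CDK2, and over all genes it called 1069 higher and 944 lower, against 1257 and 2691. ATRA+Cfz against DMSO raised 1 gene, CDKN1A, and lowered 6, CDKN2D, CCND2, CCND3, CDK4, CCNE1 and CDK2, where 50.6% of all genes were called, 20% as higher and 30.5% as lower. The median log2 fold change of the 9 genes was -0.29 for Cfz and -0.79 for ATRA+Cfz, and that of all genes -0.08 and -0.05. The comparisons with DMSO share the same 3 controls, and the Cfz and ATRA+Cfz libraries, 1 each, have no replicate check and were assumed to vary like the others.

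**Figure D2:**
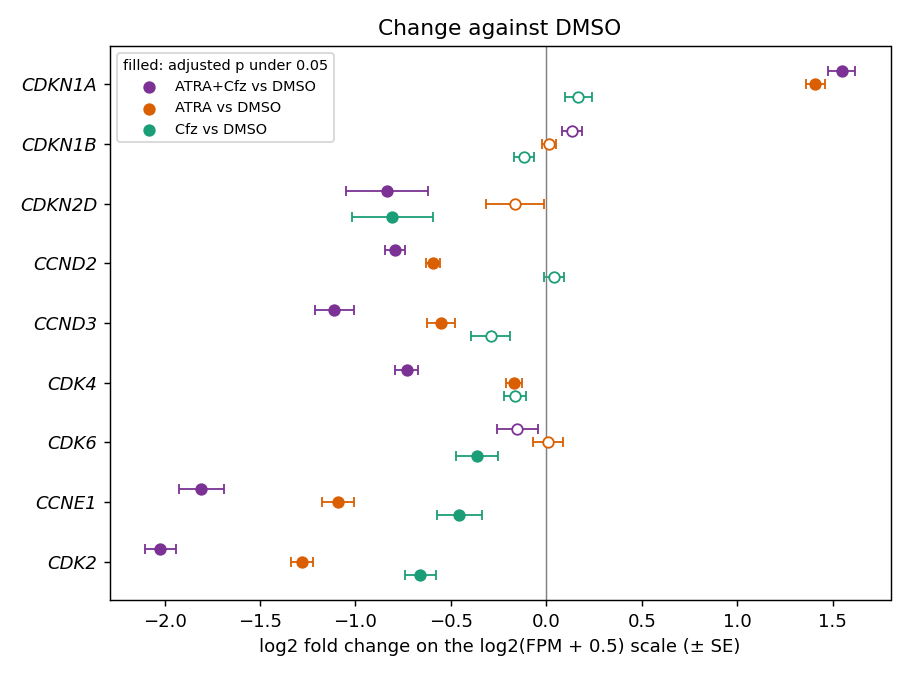
Log2 fold change on the log2(FPM + 0.5) scale (± SE) of the 9 genes for ATRA+Cfz, ATRA and Cfz, each against the same 3 DMSO libraries. Filled points passed the test at an adjusted p under 0.05. CDKN1A is the only gene to the right of 0 with filled points, and CCNE1 and CDK2 lie farthest to the left for ATRA+Cfz and ATRA, while CDKN2D does for Cfz.

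How far ATRA acted in the same way after a Cfz pulse was compared gene by gene. ATRA+Cfz against Cfz raised CDKN1A and CDKN1B and lowered CCND2, CCND3, CDK4, CCNE1 and CDK2, where 30.4% of all genes were called, 12.8% as higher and 17.6% as lower. ATRA+Cfz against ATRA raised none and lowered CDKN2D, CCND2, CCND3, CDK4, CCNE1 and CDK2, where 30.9% of all genes were called, 10.6% as higher and 20.2% as lower. The difference between the ATRA effect after Cfz and the ATRA effect without it passed the test for 1 of the 9 genes, CDK4, where 2.3% of all genes were called. That share itself hangs on single libraries, as 364 genes were called with all of them, 2, 8 and 16 without ATRA 1, 2 or 3, 240 and 169 without DMSO 1 or 2, and 1986 without DMSO 3. ATRA lowered CDK4 by 0.57 after Cfz (SE 0.07, limma adjusted p 0.000139) and by 0.17 without it, a difference of -0.40 ± 0.08 (adjusted p 0.0384). That call was lost when DMSO 1, DMSO 2 or any 1 ATRA library was left out (adjusted p 0.0638 to 0.101). For the other 8 genes the difference ranged from -0.27 ± 0.14 for CCND3 to 0.24 ± 0.07 for CDKN1B (adjusted p 0.364 and 0.112), and missing the threshold does not show that the effects were equal. Without DMSO 3 those of CDKN1B, CCND2 and CDK6 passed as well, CDK6 was called higher in ATRA+Cfz against Cfz, and CDKN1B was called higher and CDK6 lower in ATRA+Cfz against ATRA.

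**Figure D3:**
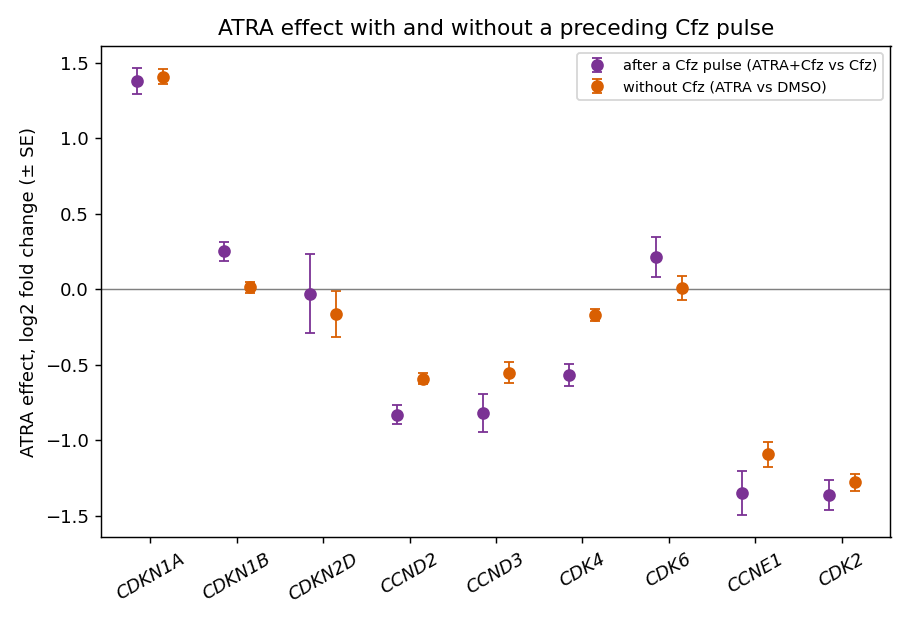
Log2 fold change under ATRA (± SE) for each of the 9 genes, after a Cfz pulse (ATRA+Cfz against Cfz) and without one (ATRA against DMSO). The paired points lie close together for CDKN1A, at 1.38 and 1.41, and farthest apart for CDK4, at -0.57 and -0.17.

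Partners were then compared as ratios within each library, which do not depend on the scaling between libraries. The ratio of CDKN1A to CDKN1B was 0.211 in ATRA+Cfz, 0.214, 0.209 and 0.203 in ATRA, 0.0955 in Cfz and 0.0775, 0.0812 and 0.0757 in DMSO. It was higher in all 3 ATRA libraries than in any control, by 1.42 on the log2 scale (exact two-sided permutation p 0.1, the smallest that 3 against 3 libraries allow). The ratio of CCND2 to CCND3 was 77.4 in ATRA+Cfz, 54.7, 60.2 and 63.9 in ATRA, 76.7 in Cfz and 59.6, 62.4 and 60.1 in DMSO. Both genes fell under ATRA by a like amount, and the ratio differed by -0.03 with overlapping libraries (exact permutation p 0.9). CDK4 to CDK6 stood at 0.137 in ATRA+Cfz, 0.180, 0.193 and 0.174 in ATRA, 0.237 in Cfz and 0.186, 0.193 and 0.243 in DMSO, where the high control is DMSO 3 (exact permutation p 0.2). CCNE1 to CDK2 stood at 0.646 in ATRA+Cfz, 0.602, 0.680 and 0.632 in ATRA, 0.647 in Cfz and 0.537, 0.557 and 0.594 in DMSO. The 3 ATRA ratios lay above the controls by 0.18 on the log2 scale, as CDK2 fell somewhat more than CCNE1 (exact permutation p 0.1). Adjusted over the 4 ratios, p was 0.2, 0.9, 0.267 and 0.2 in the order given.

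**Figure D4:**
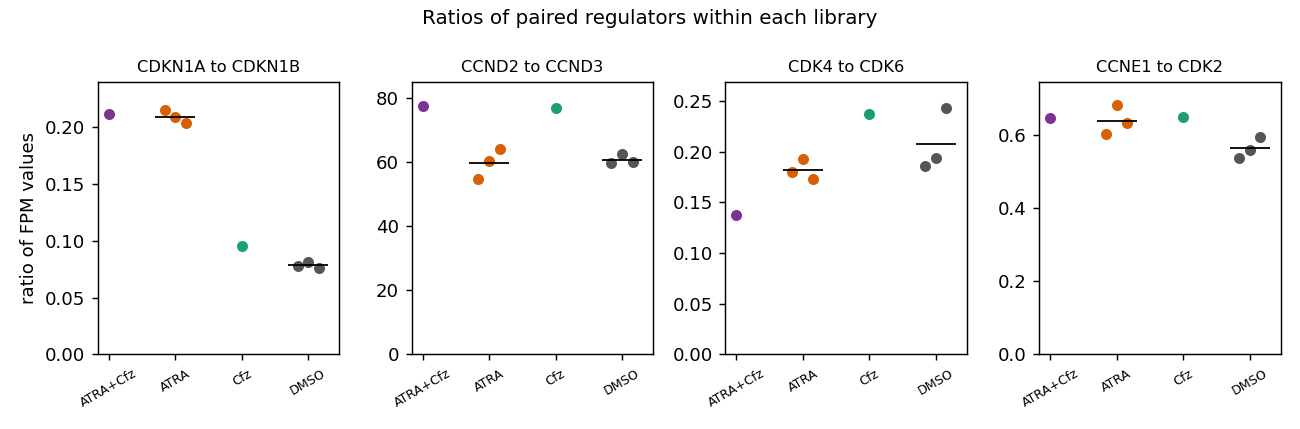
Ratios of FPM values within each library for 4 pairs of regulators (1 point per library, black lines at the mean of 3 libraries, vertical axes from 0). CDKN1A to CDKN1B separates the libraries with ATRA, at 0.203 to 0.214, from those without, at 0.0757 to 0.0955, while CCND2 to CCND3 overlaps between ATRA and DMSO.

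Levels between genes were compared per length, as FPM per kb of the longest coding transcript in GENCODE release 29, since the sources used here do not name the annotation behind the deposited values. Under ATRA, CCND2 stood at 168 FPM per kb and CCND3 at 7.65, and under DMSO at 253 and 11.3. CDKN1B stood at 102 FPM per kb in both groups, and CDKN1A at 25.05 under ATRA and 9.29 under DMSO. In both groups CCND2 was thus the major D-type cyclin RNA of the set, and CDKN1B the major RNA among the inhibitors analysed, which did not include CDKN2C. The kinases CDK4 and CDK6 had near levels in DMSO, at 52.3 and 45.7 FPM per kb, but with the shortest coding transcript they were 195 and 362, so their order is not settled by these values. CDKN2D was lowest on either length, at 2.43 FPM per kb under ATRA and 2.79 under DMSO by the longest transcript.

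Around the set, other genes of the pathway were read in 5 lists. The shares of all genes called higher and lower were 20% and 30.5% in ATRA+Cfz, 21.3% and 27.4% in ATRA and 7.94% and 17% in Cfz, and the counts of each list stand beside these. All 16 genes of the S phase output list, which encode proteins of replication and nucleotide synthesis and cyclin E2, fell under ATRA, with a median log2 fold change of -0.78. RRM2, a subunit of ribonucleotide reductase, fell by 1.13, CDT1, which loads the MCM helicase, fell by 1.04, and CDC45, a helicase partner, fell by 1.01 (limma adjusted p 3.56e-09, 1.88e-06 and 3.73e-07). In ATRA+Cfz the 16 genes fell as well, with a median of -1.64, and in Cfz 13 fell and 3 did not pass, with a median of -0.38. Without DMSO 3, 13 fell and 1 rose in Cfz. For 9 of the 16 the ATRA effect after Cfz was lower than the effect without it, where 1.31% of all genes were called lower. Without ATRA 1, 2 or 3, only 1, 2 and 2 of the 16 passed as lower, and without DMSO 1, 2 or 3 the counts were 8, 8 and 13.

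In the RB and E2F list, 12 of 17 genes fell under ATRA, 1 rose and 4 did not pass. E2F7 and E2F8, repressors that E2F factors induce, fell by 1.60 and 1.13, and LIN9, a subunit of the MuvB complex, fell by 0.83 (limma adjusted p 1.02e-09, 8.51e-07 and 9.09e-07). RB1, which encodes the retinoblastoma protein and was also chosen after its values were seen, fell by 0.83 under ATRA (adjusted p 5.44e-07). It fell by 1.09 in ATRA+Cfz and by 0.35 in Cfz. E2F1, chosen after its values were seen, fell by 0.81 under ATRA, by 2.18 in ATRA+Cfz and by 0.60 in Cfz (adjusted p 1.41e-07, 1.94e-09 and 0.000156). Its ATRA effect also differed after Cfz, by -0.76 ± 0.10 (adjusted p 0.0122), and the call was lost without ATRA 1 (adjusted p 0.0711, the highest on leaving out 1 DMSO or ATRA library). Of the 17 genes, 10 fell and 3 rose in ATRA+Cfz, and 9 fell and 3 rose in Cfz.

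Among other G1 and S phase cyclins, CDKs and inhibitors, 6 of 11 tested genes fell under ATRA and 2 rose. CCND1, cyclin D1, was low in this line, at 1.84 FPM in ATRA+Cfz, 2.20, 2.43 and 2.87 FPM in ATRA, 3.81 FPM in Cfz and 7.22, 8.87 and 5.55 FPM in DMSO. Each control lay above each treated library, and the log2 fold change under ATRA was -1.35 ± 0.17 (limma adjusted p 5.24e-05). CCNA2, the cyclin that follows cyclin E on CDK2, fell by 0.99, and CDK1, the mitotic kinase, fell by 0.89 (adjusted p 4.44e-08 and 3.86e-08). In ATRA+Cfz 6 fell and 1 rose, and in Cfz 4 fell and none rose.

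Of the ubiquitin ligase and degradation factors, 8 of 16 tested fell under ATRA and 3 rose. SKP2, the receptor that marks CDKN1B for breakdown, stood at 25.5 FPM in ATRA+Cfz, 29.9, 35.4 and 33.8 FPM in ATRA, 46.9 FPM in Cfz and 64.9, 70.8 and 62.8 FPM in DMSO. It fell under ATRA without overlap, by 0.99 on the log2 scale (SE 0.07, limma adjusted p 3.5e-07), while CDKN1B RNA did not pass in that comparison. DTL, a receptor for the breakdown of CDKN1A and CDT1 in S phase, fell by 0.81, and FBXO4, an F-box protein, fell by 0.69 (adjusted p 9.22e-09 and 0.000523). In ATRA+Cfz 8 fell and 1 rose (2 rose without DMSO 3), and in Cfz 4 fell and 1 rose.

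The transcription factors that act on these genes were split, with 7 of 18 tested higher and 7 lower under ATRA. XBP1, a plasma cell factor, rose by 1.56, MYC, which represses CDKN1A and activates CCND2 and CDK4 in other settings, rose by 0.99, and MAF rose by 0.94 (limma adjusted p 3.9e-11, 5.82e-10 and 1.44e-09). MAF stood at 1596 FPM in ATRA+Cfz, 1721, 1708 and 1721 FPM in ATRA, 896 FPM in Cfz and 899, 887 and 896 FPM in DMSO. It was thus higher in the libraries with ATRA, in which CCND2 was lower. Whether MAF, MYC or XBP1 acted on the genes of the set in these cells was not tested. In ATRA+Cfz 6 factors rose and 5 fell, and in Cfz 1 rose and 3 fell, where 6 fell without DMSO 3. The lists were chosen with earlier results of these data known and some of their genes overlap, so their counts are descriptions.

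**Figure D5:**
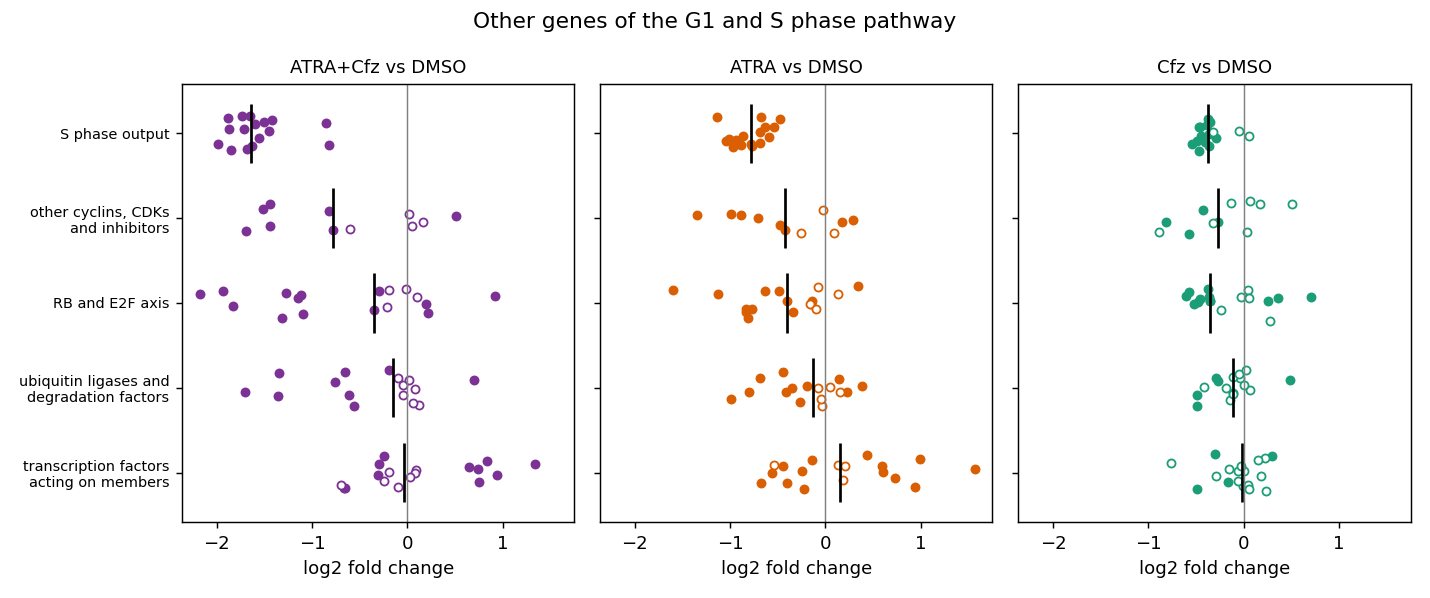
Log2 fold change of the tested genes of 5 pathway lists (1 point per gene, filled where the adjusted p was under 0.05, black lines at the list median; vertical scatter within a list has no meaning) for ATRA+Cfz, ATRA and Cfz against DMSO. All S phase output genes lie left of 0 in ATRA+Cfz and ATRA, with medians of -1.64 and -0.78, while the transcription factors lie on both sides.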

How the data were processed

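RNA sequencing values of 32 lanes, 4 for each of 8 MM.1S libraries, were used. Per the submitters' processing notes, reads went through fastp 0.20.0, kallisto 0.46.2 and DESeq2. Genome build, annotation and strand setting are not named in the sources used here, so genes overlapping on opposite strands may share reads. The values deposited by the authors are FPM, which is a CPM unit, and each lane sums to 1000000. Lanes were averaged per library, as set beforehand. For the set, none of 72 chi-square tests between lanes passed (smallest adjusted p 0.479). Over all genes with enough reads, chi-square between lanes over its degrees of freedom was 1.21 to 1.26 in the libraries. Whole reads were recovered for 100% of values within 0.01 read.

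Tests used limma-trend (limma 3.58.1, R 4.3.3) on log2(FPM + 0.5), in 1 fit of all 8 libraries and 4 groups (4 residual and 7.2 prior degrees of freedom). Fold changes are on that scale, which understates changes of low genes. Genes with a mean of group means of at least 0.5 FPM were tested (15827), with calls at an adjusted p (Benjamini-Hochberg) under 0.05. The DMSO and ATRA libraries gave the spread. Single libraries carry 95% exact Poisson intervals, which, like the floor of 3 reads, cover counting error only. Ratios were tested by exact permutation in Python 3.11.15 with scipy 1.17.1. On recovered reads, edgeR 4.0.16 and DESeq2 1.42.0 were alternatives, beside other pseudocounts, filters and scalings, a robust fit, a replicate block and leaving out each DMSO and ATRA library.

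The genes, the lists and the rule for naming list genes (up to 3 with the largest called change under ATRA) were chosen with earlier results of these data known. Some genes that the rule names are not reported here. Promoter sequences are from RefSeq (GRCh38.p14), which had 8 of the 10 genes of the set by symbol.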

Additional observations from a re-analysis of the deposited data

Results flagged for a closer look

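The ATRA effect on CDK4 differed with the preceding pulse: after Cfz it was -0.57 ± 0.07 and without Cfz -0.17 ± 0.04 on the log2 scale, a difference of -0.3967 (SE 0.08; limma, adjusted p 0.0384 over 15827 genes). ATRA+Cfz was low at 65.2 FPM, while ATRA averaged 96.5 ± 4.11 FPM (SD, n = 3), Cfz held 96.9 FPM and DMSO averaged 109 ± 2.41 FPM (SD, n = 3). The difference came from 1 ATRA+Cfz and 1 Cfz library, with no replicate check. Over 16 alternatives it ranged from -0.43 to -0.36 with adjusted p from 0.00216 to 0.101, and 5 of them, each without 1 library, did not pass.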

How the results depend on the processing

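Of 873 recomputed values of single genes, 819 kept their direction and their side of the threshold. With the sign kept, 27 lost a call and 23 gained one, and 4 changed sign. CDKN1A, CCND2, CCND3, CCNE1 and CDK2 kept their calls for ATRA and for ATRA+Cfz against DMSO under every alternative run. CDKN1B under ATRA changed sign to -0.014 without DMSO 2 (-0.014 to 0.043 on leaving out 1 library), and CDKN2D in ATRA+Cfz against Cfz to 0.0001 with TMM scaling. CDK6 under ATRA changed sign to -0.11 without DMSO 3 and to -0.0088 without ATRA 3 (-0.11 to 0.069). The value of CDK6 without DMSO 3 also passed the test as lower (limma adjusted p 0.000602). The ratio of CCND2 to CCND3 under ATRA was 0.032 without ATRA 1 (-0.080 to 0.032). DESeq2 called 1 gene of the set for Cfz, against 4, and 2 for the difference of ATRA effects, against 1. Over all genes it called 1069 higher and 944 lower for Cfz, against 1257 and 2691. For the difference of effects it called 67 of all genes higher and 229 lower, against 157 and 207. Leaving out 1 library gave 0 to 4 genes of the set for that difference, with the counts over all genes given above. The cause of these shifts was not tested. Without DMSO 3, more genes of the set were called, 7 for ATRA and 6 for Cfz. For ATRA+Cfz they were 9 against DMSO, 8 against Cfz and 8 against ATRA. Over all genes more were called as well. In the same order, 3533, 1685, 3507, 2821 and 2300 were higher and 4688, 3764, 5278, 3463 and 4092 lower. With all libraries 3368, 1257, 3173, 2028 and 1681 were higher and 4336, 2691, 4829, 2790 and 3203 lower.

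ATRA and DMSO libraries of the same number did not deviate together (r -0.006, -0.002 and 0.006). This does not show that they came from separate cultures or days, and no label tells whether the numbers pair them. With a replicate block, 6, 4, 7, 7, 5 and 1 genes were called, in the order ATRA, Cfz and ATRA+Cfz (each relative to DMSO), ATRA+Cfz relative to Cfz, ATRA+Cfz relative to ATRA, and the difference of effects. Over all genes, in the same order, 3324, 1011, 2825, 1974, 1355 and 89 were higher and 4297, 2078, 4506, 2724, 2769 and 152 lower. Each of these counts was smaller than without the block. In the set, the block cost the Cfz call of CCNE1 and the call of CDKN2D in ATRA+Cfz relative to ATRA, and added CCND3 for Cfz.

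Scaling shifted the median of all genes by under 0.1 on the log2 scale. The share of higher genes among those called for Cfz was 31.8%, and 46.3% with median-ratio scaling. For the difference of effects it was 43.1%, and 27.5% with median-ratio scaling. With edgeR and DESeq2, where the model also changes, it was 42.2% and 53.1% for Cfz, 45.3% and 40.3% for ATRA+Cfz against ATRA (34.4% with limma), and 45.9% and 22.6% for the difference of effects. CDKN2D rested on 28 to 70 reads per library, and the part of depth in its changed calls was not tested. The ratio of CDKN2D to CDKN2C was planned and not run.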

Other observations

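Over the 8 libraries and 10540 genes compared, the genes whose log2(FPM + 0.5) ran most like that of CDKN1A were PDP2 (Pearson r 0.999), POLR3D (0.998) and APOBEC3G (0.998). The gene most like CCND2 was RAB15 (0.997). The points are 8 libraries in 4 treatments that share controls, and the values are a description.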
